A study of Oryza sativa with 36 samples.

Results

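Carotenoid biosynthesis in rice was followed through 10 transcripts, given as a list of loci, out of the 33024 transcripts in the count tables. Phytoene synthase was represented by its 3 genes, PSY1 (loc_os06g51290.1), PSY2 (loc_os12g43130.1) and PSY3 (loc_os09g38320.1). The desaturation and isomerization steps were represented by PDS (loc_os03g08570.1), ZDS (loc_os07g10490.1) and CRTISO (loc_os11g36440.1), and the cyclization of lycopene by LCYB (loc_os02g09750.1) and LCYE (loc_os01g39960.1). BCH (loc_os04g48880.1) and ZEP (loc_os04g37619.1) stood for the xanthophyll steps. All 10 were listed in each of the 6 tables used and passed the filter on low counts in every comparison, with 71 to 13387 reads in a library.

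Carotenoids are made in plastids from geranylgeranyl diphosphate. Phytoene synthase (PSY) joins this precursor into phytoene, the committed step of the pathway. Phytoene desaturase (PDS) and zeta-carotene desaturase (ZDS) lengthen the conjugated chain, and carotenoid isomerase (CRTISO) turns the product into all-trans-lycopene. Lycopene beta-cyclase (LCYB) and lycopene epsilon-cyclase (LCYE) close the rings, and LCYE directs lycopene towards the alpha branch that ends in lutein. Beta-carotene hydroxylase (BCH) makes zeaxanthin, and zeaxanthin epoxidase (ZEP) makes the epoxidized xanthophylls from which abscisic acid is formed. In leaves, carotenoids take part in light harvesting and photoprotection, whereas roots hold little of them and use them as precursors of abscisic acid, strigolactones and other apocarotenoids. In rice, PSY1 and PSY2 are known as the phytoene synthases of green tissue, and PSY3 is known for its induction in roots under salt and drought stress.

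RNA was sequenced from whole shoots and whole roots of 3-week-old wild-type Nipponbare plants, kept in hydroponics under a 12 h photoperiod. The plants had received 5 µM zaxinone, an apocarotenoid that regulates growth, or a mock solution with acetone, and were harvested 2, 6 and 24 h later. Shoot and root, zaxinone and mock, and the 3 times made 12 conditions with 3 libraries each, 36 in all. No group carried a transgene or a mutant allele. The titles of all 36 samples carry the mark +P, which the labels do not define. The number of plants in a library and the hour of day of each harvest were not given in the sources used here. In such bulk samples, fewer cells of a type and less RNA per cell cannot be told apart.

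Library totals lay between 11261992 and 36469854 counted reads (median 25265203). Replicate 2 of zaxinone-treated roots at 24 h had the smallest total and stood apart, with correlations of 0.899 to 0.919 with the other 5 root libraries of that time, against 0.976 to 0.987 among those 5. The organ labels matched their markers. The summed level of 5 shoot marker transcripts ranged between 31250 and 50288 CPM in shoots and between 364 and 2549 CPM in roots (median 899), and that of 6 root marker transcripts between 10.1 and 20.1 CPM in shoots and between 3471 and 8329 CPM in roots. One of the root markers was at most 0.257 CPM in roots and at 0 in all shoots. The root libraries held shoot marker transcripts at 0.943% to 6.61% of the shoot mean. CPM denotes counts scaled by library size with TMM factors, and since the lengths of the transcripts were not used, levels are compared between conditions and not between genes.

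**Figure D1:**
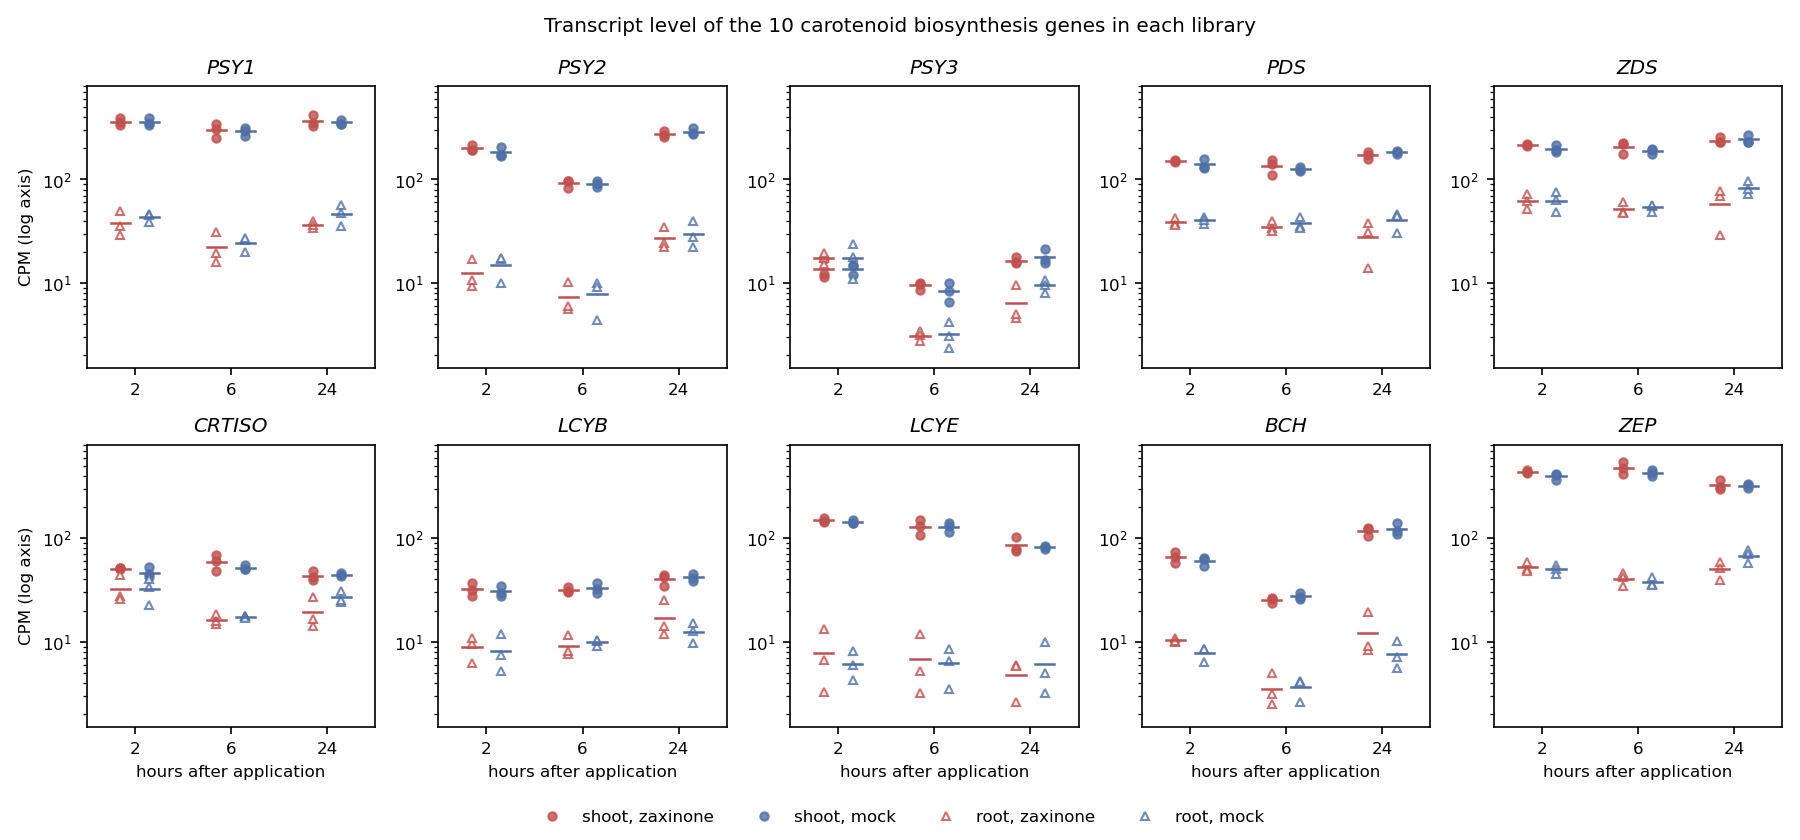
Level of each of the 10 transcripts in the 36 libraries, in CPM on a log axis, against hours after application. Filled circles are shoots, open triangles are roots, red is zaxinone and blue is mock, and horizontal lines are means of 3 libraries. The shoot libraries lay above the root libraries for PSY1, PSY2, PDS, ZDS, LCYB, LCYE, BCH and ZEP at every time, and PSY3 had 13.8 CPM in mock shoots and 17.5 CPM in mock roots at 2 h.

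In mock plants, the transcripts of the pathway were higher in shoots than in roots. At an edgeR adjusted p under 0.05 (quasi-likelihood test, Benjamini-Hochberg), 9 of the 10 were higher in shoots at 2 h, and all 10 at 6 h and at 24 h. Over the whole table, 34.9%, 34% and 33.5% of 26079 transcripts were called higher in shoots at these times, 37.2% were called lower at 2 h, and 72.1%, 68.1% and 69.7% were called in either direction. The median log2 fold change of shoot over root across the 10 was 2.47, 2.46 and 2.30, beside -0.04, 0.00015 and -0.05 across all transcripts tested. LCYE had the largest difference of the 10 at 2 h and 6 h and BCH at 24 h, while PSY3 and CRTISO had the smallest ones. In the 18 zaxinone libraries, fitted on their own, the same counts of 9, 10 and 10 transcripts were called higher in shoots.

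**Figure D2:**
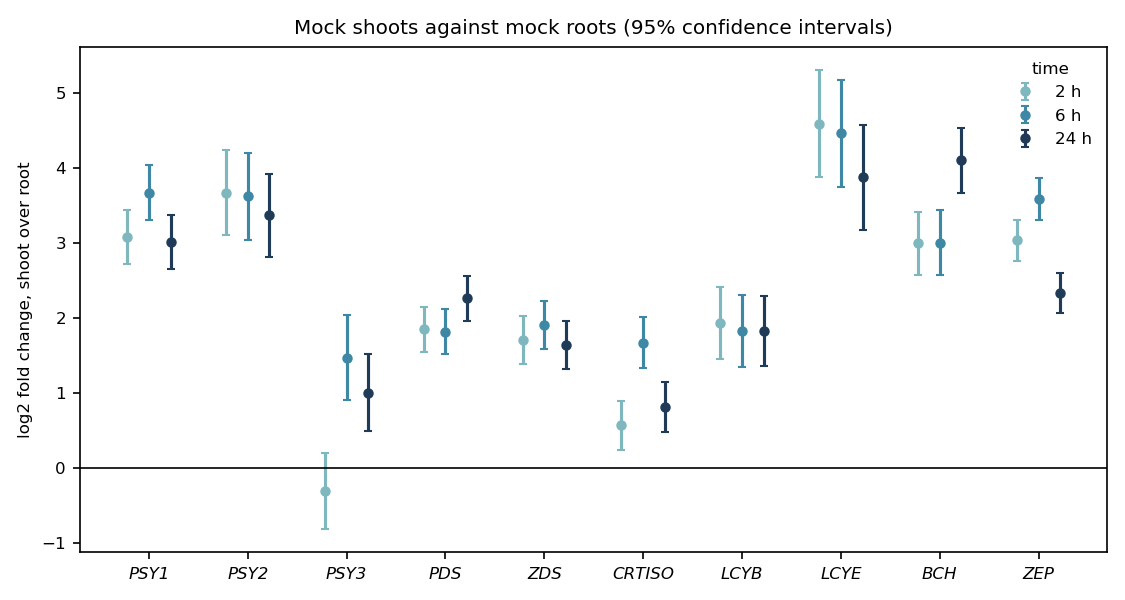
Log2 fold change of mock shoots over mock roots for each transcript at 2, 6 and 24 h, with 95% confidence intervals from the fit of the 18 mock libraries. All points lie above 0 except that of PSY3 at 2 h, at -0.31, and the highest is that of LCYE at 2 h, at 4.59.

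Levels also moved with time in mock plants, and in both organs the lowest levels of several of these transcripts fell at 6 h. In mock roots, 6 of the 10 were lower at 6 h than at 2 h, namely PSY1, PSY2, PSY3, CRTISO, BCH and ZEP, and none was higher, while 29.6% of all transcripts were called in either direction and 15.7% lower. At 24 h against 2 h in mock roots, PSY2 and ZEP were higher and PSY3 was lower, with 27.6% of all transcripts called. In mock shoots, PSY2 and BCH were lower at 6 h than at 2 h and BCH was higher at 24 h, with 15% and 14.1% of all transcripts called in either direction, 6.85% lower at 6 h and 8.24% higher at 24 h. The share of the 10 called at 24 h in the joint fit was thus near that over all transcripts in both organs. Fits of the 9 mock shoot libraries without the roots called 4 and 7 of the 10 in these shoot comparisons, where the joint fit called 2 and 1, and 29.5% and 29.4% of all transcripts. Fits of the 9 mock root libraries called 4 and 2 of the 10 and 20.7% and 19% of all transcripts. Libraries of 2 times often did not overlap over the whole table. In mock shoots, 5 of the 10 lay wholly below 2 h at 6 h, beside 22.6% of all transcripts. At 24 h, 6 lay above and 2 below, beside 19.2% and 20.8%. In mock roots, 5 lay below at 6 h, beside 16.9%, and at 24 h 2 lay above and 1 below, beside 16.4% and 14.7%. Time after application and hour of day cannot be told apart in this design, which also lacks a harvest before application.

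**Figure D3:**
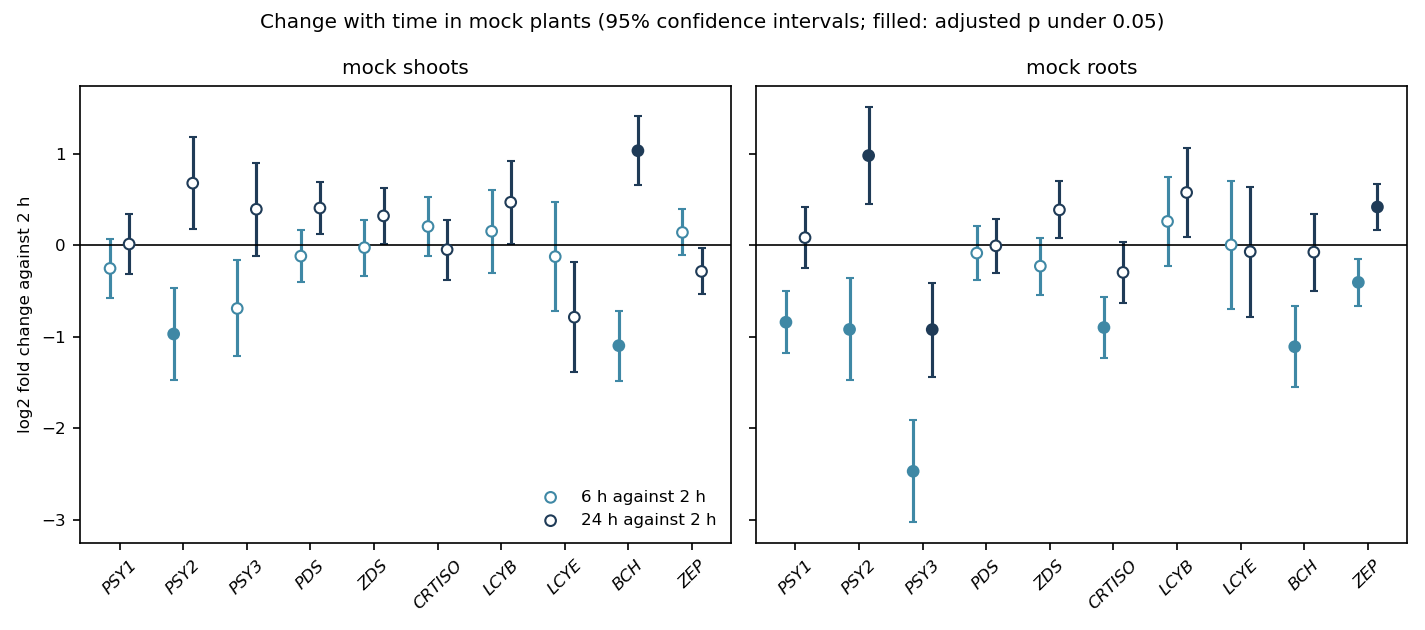
Log2 fold change in mock plants at 6 h and at 24 h against 2 h, shoots on the left and roots on the right, with 95% confidence intervals from the fit of the 18 mock libraries. Filled symbols have an adjusted p under 0.05. The lowest point is PSY3 in roots at 6 h, at -2.47, and BCH in shoots lies at -1.10 at 6 h and at 1.04 at 24 h.

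Among the phytoene synthases, PSY1 was 8.47-fold higher in mock shoots than in mock roots at 2 h. Its level in mock shoots was 348, 333 and 391 CPM at 2 h, 295, 316 and 262 CPM at 6 h and 347, 373 and 347 CPM at 24 h. In mock roots it was 46.7, 45.6 and 38.4 CPM at 2 h, 26.2, 19.7 and 27.2 CPM at 6 h and 35.6, 57.1 and 47.7 CPM at 24 h. Every shoot library was above every root library, and in each organ the 3 libraries of 6 h were below the 3 of 2 h. The log2 fold change of shoot over root was 3.08 ± 0.17 (SE) at 2 h, 3.67 ± 0.17 at 6 h and 3.01 ± 0.17 at 24 h (edgeR adjusted p at most 1.39e-11). In roots, PSY1 fell by 0.84 on the log2 scale at 6 h against 2 h (SE 0.16, edgeR adjusted p = 0.000883), and stood at 0.09 at 24 h against 2 h (adjusted p = 0.737). The fall at 6 h was also called in the 18 zaxinone libraries (-0.79, edgeR adjusted p = 0.0313). It was not called in the 9 zaxinone root libraries (-0.76, adjusted p = 0.148). Without replicate 2 of 24 h, 8 of these gave -0.74 and no call (adjusted p = 0.0538). For shoots at 6 h, the joint mock fit did not call PSY1. The 9 mock shoot libraries called it lower (-0.24, edgeR adjusted p = 0.0453), and the 9 zaxinone shoot libraries did not (-0.20, adjusted p = 0.219).

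The times were apart for PSY2 in shoots. Mock shoots held 173, 170 and 208 CPM at 2 h, 90.8, 97.1 and 85.2 CPM at 6 h and 283, 314 and 272 CPM at 24 h. Mock roots held 17.1, 17.3 and 9.95 CPM at 2 h, 10.01, 4.43 and 9.14 CPM at 6 h and 22.1, 39.7 and 27.6 CPM at 24 h. The 3 times did not overlap in shoots, with the lowest values at 6 h and the highest at 24 h, and in roots the libraries of 24 h were above all others while those of 2 h and 6 h met at 9.95 and 10.01 CPM. PSY2 was 12.8-fold, 12.3-fold and 10.3-fold higher in mock shoots than in mock roots at 2, 6 and 24 h (edgeR adjusted p at most 1.49e-09). At 6 h against 2 h it fell by 0.97 in shoots (SE 0.24, edgeR adjusted p = 0.0101) and by 0.92 in roots (SE 0.27, adjusted p = 0.0143) on the log2 scale, and the difference of these changes was -0.05 (95% interval -0.80 to 0.70). At 24 h against 2 h it was higher by 0.98 in roots (SE 0.25, adjusted p = 0.00797) and stood at 0.68 in shoots (SE 0.24, adjusted p = 0.0667). That change in shoots was called in the 9 mock shoot libraries (0.68, edgeR adjusted p = 4.0e-05), in the 9 zaxinone shoot libraries (0.45, adjusted p = 0.00338) and by DESeq2. It was not called in the 18 zaxinone libraries (0.44, adjusted p = 0.421) or with the replicate block, upper-quartile factors or library totals alone. Leaving out replicate 2 of mock roots at 24 h ended the call in roots at 24 h (0.71, edgeR adjusted p = 0.0554). Leaving out replicate 1 of mock roots at 2 h or replicate 2 at 6 h ended the call in roots at 6 h (-0.81 and -0.63, adjusted p = 0.0563 and 0.0679), as did the fit of the 9 mock root libraries (-0.91, adjusted p = 0.0595).

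PSY3 was the member with no called difference between organs at 2 h. In mock shoots it had 14.6, 14.9 and 11.9 CPM at 2 h, 6.51, 8.43 and 9.89 CPM at 6 h and 16.5, 21.3 and 15.7 CPM at 24 h. In mock roots it had 17.9, 23.7 and 10.8 CPM at 2 h, 3.05, 4.18 and 2.37 CPM at 6 h and 10.7, 9.64 and 8.07 CPM at 24 h. The organs overlapped at 2 h, and at 6 h and 24 h every shoot library was above every root library. The log2 fold change of shoot over root was -0.31 ± 0.24 (SE) at 2 h (edgeR adjusted p = 0.263), 1.47 ± 0.27 at 6 h (adjusted p = 8.0e-05) and 1.01 ± 0.25 at 24 h (adjusted p = 0.00136). With library totals alone in place of TMM factors, which moved the median of all transcripts to -0.33, PSY3 stood at -0.60 at 2 h and was called lower in shoots (adjusted p = 0.0336).

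PSY3 in roots also had the largest change with time among the 10. At 6 h against 2 h, mock roots fell by 2.47 on the log2 scale (SE 0.27, edgeR adjusted p = 3.27e-06), a 5.54-fold lower level, and all libraries of 6 h were below those of 2 h and of 24 h. The same change in the zaxinone libraries was -2.50 (edgeR adjusted p = 1.77e-05), with 17.5, 19.6 and 15.1 CPM at 2 h, 3.40, 3.12 and 2.72 CPM at 6 h and 4.59, 9.49 and 4.99 CPM at 24 h. At 24 h against 2 h, PSY3 fell by 0.92 in mock roots (SE 0.24, adjusted p = 0.00956) and stood at -1.42 in zaxinone roots (adjusted p = 0.000962). Without replicate 2 of 24 h, the change in zaxinone roots was -1.86 (edgeR adjusted p = 2.88e-06). The groups of 24 h and 2 h in mock roots lay next to each other, at most 10.7 CPM and at least 10.8 CPM, and without replicate 2 of mock roots at 2 h the call was lost (-0.60, adjusted p = 0.0527). In mock shoots the change at 6 h was -0.69 (SE 0.25, adjusted p = 0.0726), and all shoot libraries of 6 h lay below those of 2 h. The 9 mock shoot libraries gave -0.67 (edgeR adjusted p = 0.0046), and DESeq2 and the replicate block also called this change. It was not called with upper-quartile factors or library totals alone, or in the 18 zaxinone libraries (-0.47, adjusted p = 0.315). The 9 zaxinone shoot libraries did call it (-0.47, edgeR adjusted p = 0.0381). So did 17 zaxinone libraries, without replicate 2 of roots at 24 h (-0.47, adjusted p = 0.0439). The test of the difference between the organs' changes gave 1.78 ± 0.36 (SE) at 6 h (edgeR adjusted p = 0.00362, with 12.7% of all transcripts called, 7.07% higher and 5.68% lower) and 1.32 ± 0.34 at 24 h (adjusted p = 0.0126, 19.4% called), shoots minus roots. In the 18 zaxinone libraries these differences were 2.03 (adjusted p = 0.00373) and 1.69 (adjusted p = 0.00614). Without replicate 2 of zaxinone roots at 24 h they were 2.03 (edgeR adjusted p = 2.47e-05) and 2.13 (adjusted p = 2.24e-05).

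The desaturases PDS and ZDS were higher in mock shoots at each time and were not called at 6 h or 24 h against 2 h in the joint mock fit. PDS ranged between 122 and 189 CPM over the 9 mock shoot libraries and between 30.7 and 46.6 CPM over the 9 mock root libraries, and ZDS between 175 and 269 CPM in shoots and between 48.5 and 96.8 CPM in roots. No shoot library overlapped with a root library for either gene. The log2 fold change of shoot over root was 1.85 ± 0.14 (SE), 1.82 ± 0.14 and 2.26 ± 0.14 for PDS and 1.71 ± 0.15, 1.91 ± 0.15 and 1.64 ± 0.15 for ZDS at 2, 6 and 24 h (edgeR adjusted p at most 1.35e-08). At 24 h against 2 h in shoots, the 3 libraries of 24 h lay above those of 2 h for both genes, by 0.41 for PDS (edgeR adjusted p = 0.0536) and by 0.32 for ZDS (adjusted p = 0.158), and the fit of the 9 mock shoot libraries called both (adjusted p = 0.00108 and 0.0107). DESeq2 and the replicate block called PDS and not ZDS. The 9 zaxinone shoot libraries called neither, with 0.18 for PDS (edgeR adjusted p = 0.248) and 0.14 for ZDS (adjusted p = 0.305).

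CRTISO had a small difference between organs that was largest at 6 h. Mock shoots had 45.2, 42.3 and 52.3 CPM at 2 h, 50.1, 55.5 and 51.0 CPM at 6 h and 43.0, 44.3 and 46.1 CPM at 24 h. Mock roots had 40.6, 33.8 and 22.7 CPM at 2 h, 17.8, 17.6 and 16.8 CPM at 6 h and 24.2, 30.7 and 25.6 CPM at 24 h. The shoot libraries stayed within a narrow band and lay above the root libraries at each time, while the mock root libraries of 6 h lay below the other mock root libraries. Shoot over root was 1.49-fold at 2 h, 3.19-fold at 6 h and 1.77-fold at 24 h, and with library totals alone the difference at 2 h was no longer called (log2 fold change 0.28, edgeR adjusted p = 0.0952). In roots CRTISO fell by 0.90 on the log2 scale at 6 h (SE 0.16, adjusted p = 0.000456), in shoots the change was 0.21 (SE 0.16, adjusted p = 0.43), and the difference of the changes was 1.10 ± 0.22 (SE, adjusted p = 0.00349). In the 18 zaxinone libraries CRTISO stood at -0.99 in roots at 6 h (adjusted p = 0.00596), and the difference between organs was 1.26 (adjusted p = 0.0275). The 9 zaxinone root libraries alone gave -0.96 and no call (edgeR adjusted p = 0.0783), and 8 of them without replicate 2 of 24 h gave -0.93 (adjusted p = 0.0145).

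The cyclases differed in how far the organs were apart. LCYB had 27.5 to 45.4 CPM over the 9 mock shoot libraries and 5.23 to 15.3 CPM over the 9 mock root libraries, with no overlap. Its log2 fold change of shoot over root was 1.94 ± 0.23 (SE), 1.83 ± 0.23 and 1.83 ± 0.22 at 2, 6 and 24 h (edgeR adjusted p at most 7.94e-07), and the joint mock fit called it at neither 6 h nor 24 h against 2 h. At 24 h it stood at 0.47 in shoots (edgeR adjusted p = 0.161) and at 0.58 in roots (adjusted p = 0.0688), and was called in the 9 mock shoot libraries (0.47, adjusted p = 0.00325) and, in roots, with upper-quartile factors, library totals alone or the replicate block. LCYE, at the entry to the lutein branch, was 24.1-fold, 22.1-fold and 14.7-fold higher in mock shoots than in mock roots at these times (adjusted p at most 5.94e-09). It had 141, 141 and 150 CPM in mock shoots at 2 h, 131, 139 and 114 CPM at 6 h and 83.3, 79.3 and 84.1 CPM at 24 h. In mock roots it had 5.90, 8.18 and 4.23 CPM at 2 h, 8.57, 3.53 and 6.47 CPM at 6 h and 3.17, 10.05 and 5.02 CPM at 24 h. The shoot libraries of 24 h lay below all others in shoots, whereas the root libraries of the 3 times overlapped.

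Whether the lower level of LCYE in shoots at 24 h was called depended on the fit. Against 2 h its log2 fold change in mock shoots was -0.78 ± 0.29 (SE, edgeR adjusted p = 0.0763) in the fit of all mock libraries, and -0.78 (adjusted p = 4.08e-06) in the fit of the 9 mock shoot libraries. The change was also called with library totals alone, and not by DESeq2, with upper-quartile factors or with the replicate block. The zaxinone shoots had 148, 143 and 156 CPM at 2 h and 79.2, 75.1 and 102 CPM at 24 h, again without overlap. Their own 9 libraries gave -0.80 (edgeR adjusted p = 0.00079). The 18 zaxinone libraries gave -0.82 and no call (adjusted p = 0.424). Nor was there a call in 17 of them, without replicate 2 of roots at 24 h (-0.82, adjusted p = 0.203).

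BCH had the largest time changes of the 10 in shoots. Mock shoots had 64.8, 54.0 and 63.2 CPM at 2 h, 27.0, 29.6 and 26.1 CPM at 6 h and 117, 139 and 111 CPM at 24 h. Mock roots had 8.57, 8.56 and 6.39 CPM at 2 h, 4.19, 2.63 and 4.10 CPM at 6 h and 5.64, 10.2 and 7.11 CPM at 24 h. In shoots the 3 times were apart from one another, lowest at 6 h and highest at 24 h, and in roots only the libraries of 6 h were apart from the rest. At 6 h against 2 h, BCH fell by 1.10 in shoots (SE 0.18, edgeR adjusted p = 0.000354) and by 1.11 in roots (SE 0.21, adjusted p = 0.000831) on the log2 scale, with a difference of 0.01 (95% interval -0.57 to 0.60). At 24 h it was 2.05-fold higher in shoots than at 2 h (log2 fold change 1.04 ± 0.18 SE, adjusted p = 0.000626) and stood at -0.07 in roots (SE 0.20, adjusted p = 0.831). That difference between the organs was 1.11 ± 0.27 (SE, edgeR adjusted p = 0.00768). Shoot over root accordingly was 7.98-fold at 2 h, 8.04-fold at 6 h and 17.2-fold at 24 h.

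In zaxinone shoots BCH was likewise lowest at 6 h and highest at 24 h, with 66.0, 57.7 and 73.6 CPM at 2 h, 26.3, 23.5 and 25.6 CPM at 6 h and 124, 105 and 127 CPM at 24 h. Their own 9 shoot libraries gave -1.33 at 6 h (edgeR adjusted p = 1.37e-06) and 0.84 at 24 h (adjusted p = 8.19e-05), and the fit of all 18 zaxinone libraries gave -1.33 (adjusted p = 0.00711) and 0.83 (adjusted p = 0.131). The difference between organs at 24 h was 0.55 in the 18 zaxinone libraries (adjusted p = 0.347), in which 1 of the 3 root libraries of 24 h, the replicate that stood apart, had 19.4 CPM and the others 8.37 and 9.10 CPM. Without that replicate it was 1.08 (adjusted p = 0.00577), and the change in shoots at 24 h was 0.83 (adjusted p = 0.00213).

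ZEP had organ differences that narrowed at 24 h. Mock shoots had 411, 366 and 422 CPM at 2 h, 424, 458 and 403 CPM at 6 h and 309, 328 and 334 CPM at 24 h. Mock roots had 55.3, 50.6 and 44.9 CPM at 2 h, 36.2, 35.5 and 42.5 CPM at 6 h and 57.6, 76.3 and 70.4 CPM at 24 h. In shoots the libraries of 24 h were below the others, and in roots those of 6 h were below and those of 24 h above the rest. Shoot over root was 8.22-fold at 2 h, 12.0-fold at 6 h and 5.05-fold at 24 h (edgeR adjusted p at most 8.53e-12).

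In roots ZEP fell by 0.40 on the log2 scale at 6 h (SE 0.12, edgeR adjusted p = 0.0191) and was higher by 0.42 at 24 h (SE 0.12, adjusted p = 0.0158), and in shoots the changes were 0.14 and -0.28 (SE 0.12 each, adjusted p = 0.49 and 0.13). The change in shoots at 24 h was called in the 9 mock shoot libraries (-0.28, edgeR adjusted p = 0.0122), with upper-quartile factors and with library totals alone. It was not called by DESeq2, with the replicate block or in the 18 zaxinone libraries (-0.45, adjusted p = 0.136). The 9 zaxinone shoot libraries did call it (-0.44, edgeR adjusted p = 0.00987). So did 17 zaxinone libraries, without replicate 2 of roots at 24 h (-0.45, adjusted p = 0.0304). Both root calls for ZEP were lost when any of 3 root libraries was left out. At 6 h these were replicate 1 of 2 h and replicates 1 and 2 of 6 h (adjusted p = 0.0774, 0.0703 and 0.0771). At 24 h they were replicate 3 of 2 h and replicates 2 and 3 of 24 h (adjusted p = 0.0734, 0.0833 and 0.0641). The difference between the organs' changes was 0.55 ± 0.17 (SE) at 6 h (edgeR adjusted p = 0.0437) and -0.70 ± 0.17 at 24 h (adjusted p = 0.00792). Only 5 of the 18 fits that left out 1 library kept the call at 6 h, where the highest adjusted p was 0.107, and all 18 kept that at 24 h. In zaxinone roots ZEP overlapped between these times, with 50.5, 58.4 and 48.5 CPM at 2 h and 59.1, 39.6 and 51.4 CPM at 24 h (log2 fold change -0.04, adjusted p = 0.89, and 0.07 with adjusted p = 0.78 without replicate 2 of 24 h).

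Zaxinone was compared with mock within each organ and time, 3 libraries against 3, and no transcript of the 10 passed the test in any of the 6 comparisons. Over the whole table, edgeR called 0.636% (0.543% higher, 0.0933% lower) of the transcripts tested in roots at 2 h, 1.61% at 6 h and 0.00423% at 24 h. The shares for shoots were 0%, 0.00433% and 0% in the same order of times. None of the 10 had an unadjusted p under 0.05 in any of these comparisons either, and DESeq2 called none of them. In shoots, where edgeR called 0 transcripts at 2 h and 24 h over the whole table, 941 and 901 had an unadjusted p under 0.05 and DESeq2 called 1 and 3. The smallest p that exact permutation of 3 against 3 libraries allows for a single value is 0.1.

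The log2 fold changes of zaxinone over mock were small in shoots. Their ranges were -0.02 to 0.15 at 2 h, -0.12 to 0.20 at 6 h and -0.11 to 0.06 at 24 h, with standard errors of 0.07 to 0.16. For all 10 transcripts and all 3 times in shoots, the 95% intervals excluded a change of 2-fold in either direction, the outermost bounds being 0.767-fold and 1.46-fold. At 2 h, 9 of the 10 were on the higher side in zaxinone shoots, with a median of 0.11 beside -0.0010 over all transcripts. The tilt was not particular to the 10. All 5 shoot marker transcripts tested were on the higher side (median 0.11), as were 10 of 12 transcripts of precursor supply (0.08) and 7 of 8 further carotenoid transcripts (0.12), lists described below. Among the 10, for ZEP alone did the libraries not overlap. ZEP had 433, 432 and 461 CPM in zaxinone shoots, against 411, 366 and 422 CPM in mock shoots (log2 fold change 0.15 ± 0.08 SE, edgeR adjusted p = 0.996). Over the whole table, 9.26% of transcripts had no overlap in that comparison.

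In roots the values were less precise. The log2 fold changes ranged over -0.27 to 0.39 at 2 h, -0.13 to 0.13 at 6 h and -0.56 to 0.71 at 24 h, and the intervals excluded a 2-fold change for 9, 9 and 3 of the 10 transcripts. The exception at 2 h and 6 h was LCYE, whose standard error was 0.46 at both times. BCH at 2 h was the only transcript in roots whose groups did not overlap, with 9.85, 10.95 and 10.3 CPM in zaxinone roots, against 8.57, 8.56 and 6.39 CPM in mock roots. All 3 zaxinone libraries were above all 3 mock libraries, as in 12.4% of transcripts over the whole table in either direction, and the log2 fold change was 0.39 ± 0.20 (SE, edgeR adjusted p = 0.732). At 6 h BCH was at -0.04 (SE 0.28, adjusted p = 0.966), with 4.95, 3.12 and 2.53 CPM in zaxinone roots, against 4.19, 2.63 and 4.10 CPM in mock roots.

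**Figure D4:**
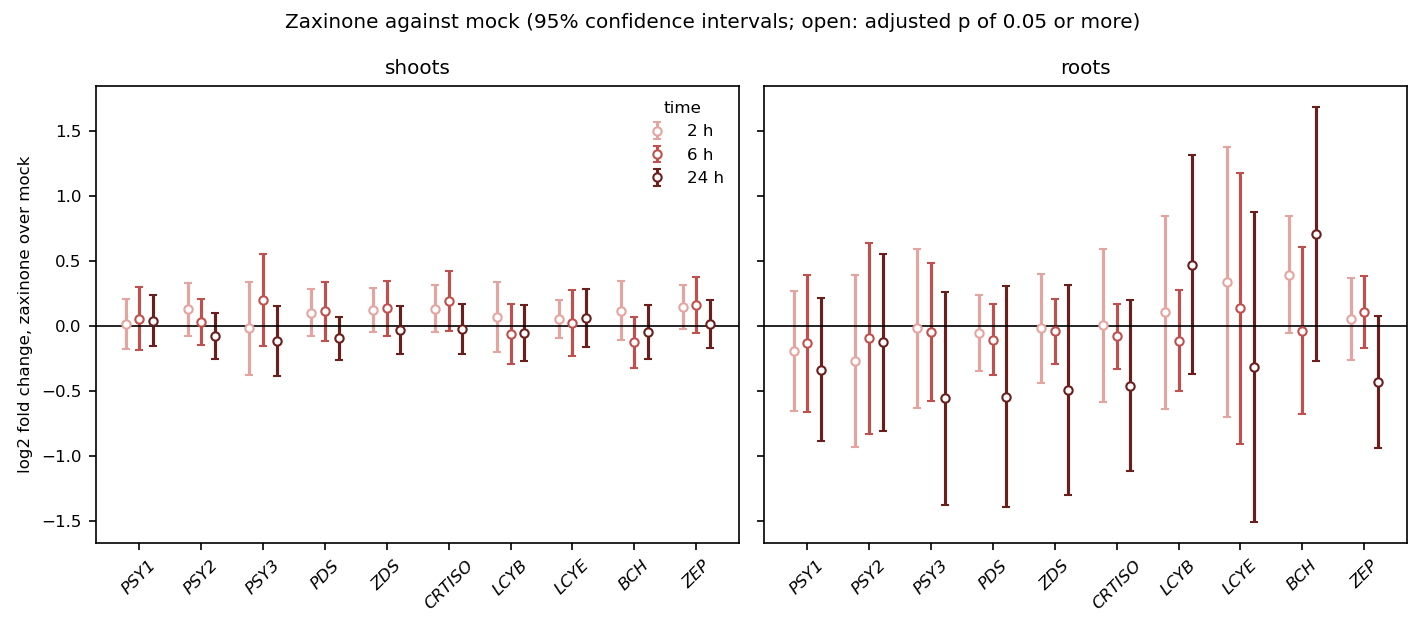
Log2 fold change of zaxinone over mock for each transcript at 2, 6 and 24 h, shoots on the left and roots on the right, with 95% confidence intervals from the fit of each organ and time. All symbols are open because no adjusted p was under 0.05. The widest spread of values is that of roots at 24 h, -0.56 to 0.71.

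At 24 h in roots, 8 of the 10 were on the lower side in zaxinone plants, with a median of -0.38 beside -0.0025 over all transcripts, and none of the groups was without overlap. The replicate that stood apart had the lowest values of its group for PDS (13.9 CPM, against 30.7 and 37.9 CPM in the other zaxinone libraries), ZDS (29.1, against 69.7 and 76.9 CPM), CRTISO (14.1, against 27.2 and 16.6 CPM) and ZEP (39.6, against 59.1 and 51.4 CPM). It had the highest values for PSY1, PSY3, LCYB, LCYE and BCH. Without it the median was -0.25, with 8 of 10 still on the lower side, and PDS stood at -0.23 and ZDS at -0.17, against -0.54 and -0.49 with it. Without replicate 2 of mock roots at 24 h the median was -0.26, with 6 of 10 on the lower side.

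PSY3 in roots at 24 h was called in 1 alternative fit. It had 4.59, 9.49 and 4.99 CPM in zaxinone roots, against 10.7, 9.64 and 8.07 CPM in mock roots, so that replicates 1 and 3 of zaxinone were below all mock libraries and replicate 2 was not. The log2 fold change was -0.56 ± 0.35 (SE, edgeR adjusted p = 0.606). Without that replicate it was -0.97 and fell just short of a call (edgeR adjusted p = 0.0617). With limma's voomWithQualityWeights, which gives each library a weight, PSY3 stood at -0.84 with an adjusted p of 0.0293, the only alternative in which any of the 10 was called, and that fit called 760 transcripts where edgeR called 1. BCH at 24 h had 8.37, 19.4 and 9.10 CPM in zaxinone roots, against 5.64, 10.2 and 7.11 CPM in mock roots (log2 fold change 0.71 ± 0.42 SE, edgeR adjusted p = 0.597, 0.21 without zaxinone replicate 2).

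The effect of zaxinone was also tested for a difference between shoots and roots at each time, and between 6 h or 24 h and 2 h in roots. None of the 10 transcripts passed any of these 5 tests, in which edgeR called 0.206%, 0.0545% and 0.0157% of all transcripts for the difference between organs at 2, 6 and 24 h and 0.00401% and 0.016% for the difference between times. None had an unadjusted p under 0.05, and DESeq2 called none of them.

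LCYE in roots was set beside the shoot marker transcripts, because its root level was a small share of its shoot level. Over the 18 root libraries, LCYE ranged between 2.24% and 11.3% of its mean in mock shoots, while the summed shoot markers ranged between 0.943% and 6.61% of their shoot mean. In each of the 6 root conditions the 3 libraries had the same order for LCYE as for the marker sum. BCH had the same order as the markers in 5 of the 6 conditions, PSY1 and PSY2 in 4, PSY3, ZDS and LCYB in 3, PDS and ZEP in 2 and CRTISO in 1. Across the 18 root libraries, Pearson's r of log2(CPM + 1) with the log2 marker sum was 0.80 for LCYE, 0.454 for LCYB and between -0.257 and 0.0582 for the other 8. These libraries share conditions and depth, so the values are a description, and what part shoot RNA had in the LCYE level of roots was not tested.

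**Figure D5:**
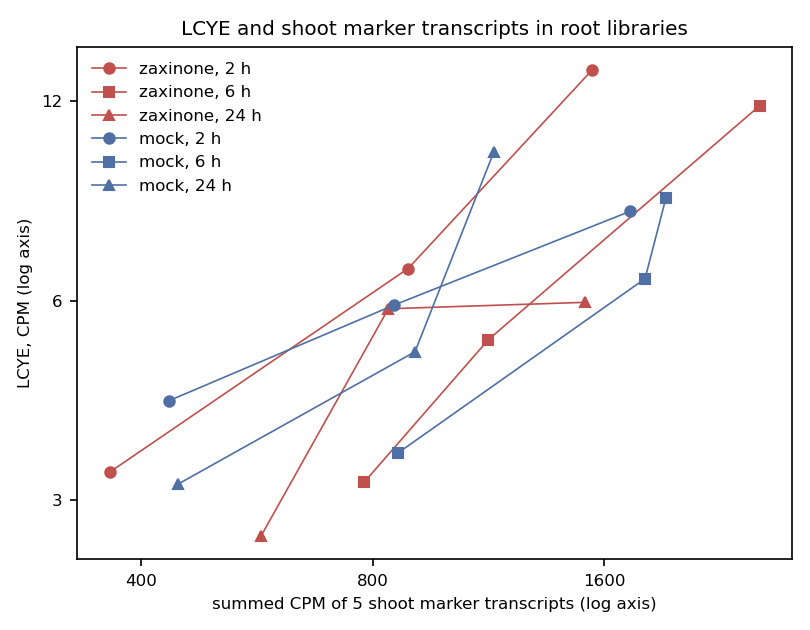
Level of LCYE against the summed level of 5 shoot marker transcripts in the 18 root libraries, both in CPM on log axes. Red is zaxinone and blue is mock, symbols give the hours after application, and lines join the 3 libraries of a condition in the order of the marker sum. Every line goes up to the right, so the order of the libraries is the same for both measures in all 6 conditions.

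Within organs, some of the 10 transcripts had similar profiles over the libraries. In the 18 shoot libraries, PSY2 and BCH had the closest profiles, with r = 0.99 for log2(CPM + 1), and PDS and ZDS followed with 0.92. ZEP ran opposite to BCH (-0.77), to PSY2 (-0.70) and to PSY3 (-0.69) in shoots, and together with CRTISO (0.89). In the 18 root libraries the highest values were 0.81 for PSY1 and PSY2 and 0.80 for ZEP with each of PSY1, PSY2 and ZDS. The lowest was -0.52 for PDS and LCYB, which rests on the replicate that stood apart: without it r was 0.13 in 17 libraries. The order of the highest values rests on that replicate too. Without it r was 0.917 for PSY2 and ZDS (0.525 with it), 0.896 for PSY2 and ZEP and 0.885 for ZDS and ZEP, and stayed at 0.81 for PSY1 and PSY2. These libraries come from 6 conditions of 3 and share their times, and the correlations are a description without a test.

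Over the means of all 12 conditions, the transcript most like PSY1 outside the 10 was loc_os11g16550.1 (r = 0.9988 for log2(CPM + 1), among 22447 transcripts), and that most like PSY2 was loc_os09g31506.1 (r = 0.998). Both also had higher levels in shoots, as PSY1 and PSY2 did. PSY3 had no such close match, with 0.9635 for loc_os02g56910.1 and 0.9541 for loc_os04g51320.1. The files do not pair these identifiers with names.

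Further loci of the pathway were counted as lists. Of 13 loci listed for the supply of isoprenoid precursors upstream of phytoene, 12 were found, and of 10 further carotenoid loci, 8. In mock plants, averaged over the 3 times, 10 of the 12 upstream transcripts were higher and 2 lower in shoots, and 6 of the 8 further ones were higher and 1 lower, where 39.1% of all transcripts were called higher, 41.7% lower and 80.8% in either direction. The median log2 fold changes were 1.95 and 1.69, beside 2.48 for the 10 members and -0.03 over all transcripts. In mock roots at 6 h against 2 h, 1 of 12 upstream and 3 of 8 further transcripts were lower and none was higher, where 15.7% of all transcripts were lower. In mock shoots at that time, 3 of 12 and 1 of 8 were lower and none was higher, where 6.85% of all were lower. Between 24 h and 2 h in mock roots, each list had 2 transcripts higher and 1 lower, and in mock shoots 1 upstream transcript was higher and 1 lower, while 2 further ones were higher, where 27.6% of all transcripts were called in roots and 14.1% in shoots.

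Under zaxinone, the lists held a called transcript only in roots at 6 h, 1 in each list, the comparison with the highest share over all transcripts (1.61%). The upstream transcript loc_os07g09190.1 was higher in zaxinone roots (log2 fold change 1.56, edgeR adjusted p = 0.0118), and the further carotenoid transcript loc_os03g03370.1 was lower (-0.72, adjusted p = 0.0372). The medians in that comparison were 0.11 for the 12 upstream transcripts and -0.26 for the 7 further ones tested, beside -0.06 for the 10 members and -0.0044 over all transcripts.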

How the data were processed

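RNA-seq libraries of rice shoots and roots were analysed from the read counts per transcript that the authors deposited in 6 tables, one for each organ and time. The authors trimmed reads with Trimmomatic, aligned them with HISAT2 to the Oryza sativa v7.0 genome from Phytozome and counted them with HTSeq. Versions and the strand setting are not given in the sources used here. The tables also hold the authors' DESeq2 fold changes and p-values, which were not used. Each table was deposited in 2 copies with the same values, and 1 was used. Of 33024 transcripts, 26368 were listed in all 6 tables, and a transcript not listed in a table was given 0. Without strand, reads of overlapping genes cannot be told apart, and reads shared between related genes were not examined.

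Counts were tested with edgeR 4.0.16 (quasi-likelihood test, TMM factors, filterByExpr, Benjamini-Hochberg adjustment over all transcripts tested, threshold 0.05) in R 4.3.3. Zaxinone was compared with mock in the 6 libraries of each organ and time, organ and time were compared in 1 fit of the 18 mock libraries, and differences of the zaxinone effect were tested in the 12 libraries of a time or the 18 root libraries. CPM used TMM factors over all 36 libraries. Library totals were 11261992 to 36469854. The methods of the study call the replicates independent, and no replicates were merged. How many plants or cultures each came from was not given, so p-values measure the spread between these libraries.

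All 10 transcripts were named, and for each PSY gene the 2 transcripts with the most similar profile over the 12 condition means, with a floor of 1 CPM on the mean level (Pearson's r of log2(CPM + 1)). The members and lists were chosen with earlier results of these data known. Alternatives were DESeq2 1.42.0, limma 3.58.1 with voomWithQualityWeights, other scaling factors and filters, a replicate block, other sets of libraries and leaving out each library. Fits of the zaxinone libraries and of 1 organ alone were chosen after seeing the data. The fits were tested on simulated data with 200 changed transcripts, taken from those with a mean of at least 100 reads. Each transcript was given the spread typical of its level. The rates therefore need not hold for members with fewer reads or a wider spread, such as PSY3 and LCYE in roots. Changes of 1 on the log2 scale were recovered in 64%, 95% and 12% of cases for zaxinone in roots at 2, 6 and 24 h and in 100%, 98% and 99% in shoots. Figures were drawn with matplotlib 3.10.9 in Python 3.11.15.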

Additional observations from a re-analysis of the deposited data

Results flagged for a closer look

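The time changes of 4 transcripts differed between the organs of mock plants, as tested by the interaction of organ and time in edgeR, which called 12.7% of all transcripts at 6 h and 19.4% at 24 h. Given as the change in shoots minus the change in roots on the log2 scale, the differences at 6 h against 2 h were 1.78 for PSY3, 1.10 for CRTISO and 0.55 for ZEP. At 24 h against 2 h they were 1.32 for PSY3, 1.11 for BCH and -0.70 for ZEP. In the 18 zaxinone libraries the differences were 2.03, 1.26 and 0.52 at 6 h and 1.69, 0.55 and -0.42 at 24 h for the same transcripts, and those of ZEP at both times and of BCH were not called there (edgeR adjusted p = 0.184, 0.185 and 0.347). Without replicate 2 of zaxinone roots at 24 h, BCH was called (1.08, edgeR adjusted p = 0.00577) and ZEP was not (0.52 and -0.52, adjusted p = 0.0556 and 0.0689). PSY3 at 24 h then stood at 2.13 (adjusted p = 2.24e-05). In mock plants the call of ZEP at 6 h was lost in 13 of 18 fits that left out 1 library, with the replicate block (adjusted p = 0.0539) and with upper-quartile factors (adjusted p = 0.0683). Whether mock and zaxinone libraries differ in these values was not tested.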

How the results depend on the processing

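No transcript of the 10 was called for zaxinone under any alternative run, except PSY3 in roots at 24 h with voomWithQualityWeights, which called 1. The counts of members higher in shoots stayed at 9, 10 and 10, except that with library totals alone 8 were higher and 1 was lower at 2 h. For roots at 6 h against 2 h the joint mock fit called 6 members, against 2 in the 9 zaxinone root libraries (6.91% of all transcripts called) and 3 in 8 of them without replicate 2 of 24 h (32.1%). For roots at 24 h, 3 were called, against 5 with upper-quartile factors (28.1% of all) and 5 with library totals alone (27.4%), and leaving out 1 library gave 1 to 5. ZEP at 24 h in roots turned to -0.036 in the 18 zaxinone libraries and to -0.049 in the 9 zaxinone root libraries, and stood at 0.068 and 0.085 in these sets without replicate 2 of 24 h. For shoots at 6 h, 2 were called, against 4 in the 9 mock shoot libraries (29.5%). For shoots at 24 h, 1 was called, against 3 with DESeq2 (17% of all), 2 with upper-quartile factors (14%), 3 with library totals alone (14.1%), 2 with at least 10 counts in every library (18.7%), 7 in the 9 mock shoot libraries (29.4%), 0 in the 18 zaxinone libraries (3.23%), 2 in 17 of them (13.5%), 4 in the 9 zaxinone shoot libraries (20.4%) and 1 to 5 when a library was left out. For the difference between organs at 24 h, 3 were called, against 1 in the 18 zaxinone libraries (17%). The causes were not tested.

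Same-numbered libraries did not deviate together. Over 18 pairs of zaxinone and mock libraries the correlation of deviations was -0.123 to 0.171, with 3 pairs over 0.1, and over 9 pairs of mock shoots and roots it was -0.0577 to 0.123. With the replicate block, 0 members were called for zaxinone, 4 for roots at 24 h, 3 for shoots at 6 h, 2 for shoots at 24 h and 2 for the difference between organs at 6 h.

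Over all transcripts, DESeq2 called 468, 1113 and 415 for zaxinone in roots at 2, 6 and 24 h, where edgeR called 150, 384 and 1, and 124 in shoots at 6 h, where edgeR called 1. Library totals alone moved the median of all transcripts for shoot over root to -0.33, -0.29 and -0.46, with 7361 higher and 12416 lower at 2 h, against 9092 and 9707 with TMM. For roots at 6 h against 2 h upper-quartile factors gave 4521 higher and 3123 lower, against 3622 and 4106, and at 24 h 4149 and 3180, against 3346 and 3853. Of 60 mean CPM values in mock plants, 17 moved by more than 1 SD with library totals alone. Precision was lowest for LCYE in roots, where zaxinone over mock had standard errors of 0.46, 0.46 and 0.51 on the log2 scale at 2, 6 and 24 h.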
